A study of Rattus norvegicus with 6 samples.

Results

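Transporters that move drugs, conjugated metabolites, lipids and other organic ions were examined in cells of the rat inner medulla, the innermost zone of the kidney. The set comprised ATP-binding cassette (ABC) genes of subfamilies A to G, the organic ion and carnitine carriers of the Slc22 and Slc47 families, and the organic anion transporting polypeptides of the Slco family except Slco2a1. Members were taken by gene symbol from the annotation of the array, where a probe set (the group of short probes that reads 1 transcript) had to carry a single symbol. This gave 66 genes on 88 probe sets, of 14217 genes and 31042 probe sets tested, with each gene represented by its probe set of highest mean log2 value. Tap1 and Cftr, which are ABC genes under other symbols, were not members.

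The study measured RNA on 6 arrays. Of these, 3 held the IMCD fraction, in which cells of the inner medullary collecting duct had been enriched by spinning digested tissue at low speed, and 3 held the nonIMCD fraction, the cells then recovered from the supernatant. All rats were male and of the Sprague-Dawley strain, 7 were used, and all received 1 mg of the loop diuretic furosemide 30 min before decapitation, so neither fraction comes from untreated animals. Both fractions come from tissue digested with collagenase B and hyaluronidase (75 min, 37 °C). By their labels the rats of IMCD replicate 1 were 6 weeks old and those of the other 5 arrays 10 weeks. Both fractions are mixtures enriched or depleted by sedimentation, and the labels do not say how rats were pooled. The series describes 3 pairs of fractions without saying which arrays form a pair.

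ABC proteins use ATP to move substrates across membranes, mostly outward. In epithelia and in vessel walls the drug and conjugate exporters limit what enters cells or carry it out. The Slc22, Slc47 and Slco carriers move organic cations, anions, carnitine, steroid conjugates and thyroid hormones by facilitated or exchange transport. In the kidney this work is best known from the proximal tubule, where basolateral uptake carriers and apical exporters act in series to secrete drugs into the urine, and that segment lies outside the inner medulla.

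Arrays of 1 fraction correlated at r = 0.956 to 0.966 across probe sets, and arrays of different fractions at r = 0.901 to 0.91 (31042 probe sets, which share the array and its scaling). Among markers of collecting duct principal cells, 10 of 12 were higher in IMCD and 0 lower, with summed intensities of 263375 to 281503 in IMCD and 134610 to 175981 in nonIMCD. Aqp2 and Slc14a2 did not pass and were bright in both fractions. Aqp2 had means of 52574 in IMCD and 43299 in nonIMCD, and Slc14a2 of 34804 and 27900. All 10 measured endothelial markers were lower (sums of 14238 to 18310 against 69593 to 76223). Of 12 leukocyte markers 11 were lower (1457 to 1828 against 84697 to 94017), and of 11 interstitial and pericyte markers 6 were lower (5180 to 5671 against 34381 to 38098). Of 12 proximal tubule markers 3 were lower (1411 to 1586 against 7134 to 8563), while 6 of the 12 had means at or under the highest negative control in each fraction. Lower as well were 3 of 4 thin limb markers, 3 of 6 of the thick ascending limb and 3 of 3 of red cells. In the thick ascending limb list Slc12a1, Umod and Egf did not pass, and their arrays overlapped. Of 6 urothelial markers only 1 was lower, Trim29, where 15.7% of all genes were lower. Of 7 intercalated cell markers 3 were higher. No marker was listed at 0. The log2 ratio of 3' to 5' signal in control transcripts, a measure of RNA integrity, lay between 0.67 and 0.72 in IMCD and between 1.22 and 1.5 in nonIMCD. These lists and this ratio moved with the fractions and so with every difference given here, and their part in the differences was not tested. In such mixed fractions fewer cells of a type and less RNA per cell cannot be told apart.

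The comparison asked which transporter transcripts differ between a fraction enriched in collecting duct cells and the fraction left after that enrichment. Differences are IMCD minus nonIMCD on the log2(intensity + 16) scale, with standard errors (SE) and p-values from limma, adjusted over all probe sets by the Benjamini-Hochberg method. A gene is called higher or lower where adjusted p is under 0.05. Of the 66 transporter genes 4 were higher in IMCD (6.06%), 13 were lower (19.7%) and 49 did not pass. Over all genes 10.0% were higher and 15.7% lower. The role groups given below hold 3 to 12 genes, some of them neighbours, and were not tested as sets. In either direction 17 members passed (25.8%), the same share as among all genes (25.8%). All 3 IMCD arrays lay above all 3 nonIMCD arrays in 9 members (13.6%, against 20.0% of all genes) and under them in 17 (25.8%, against 28.7%). These shares are near those of genes at large. Lower by at least 2-fold were 11 members (16.7%), against 9.85% of all genes, and higher by at least 2-fold were 2 (3.03%), against 4.60%. The median difference was -0.21 over the members and -0.09 over all genes. With each array centred on its median, the median of all probe sets shifted by 0.29 and that of the members became 0.07, with 7 members higher and 11 lower. Over all probe sets that scaling turned the balance of calls, from 2663 higher and 4163 lower to 5389 higher and 2652 lower. Quantile normalization shifted the median of all probe sets by 0.15 and gave a member median of -0.07, with 4 higher and 13 lower.

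**Figure D1:**
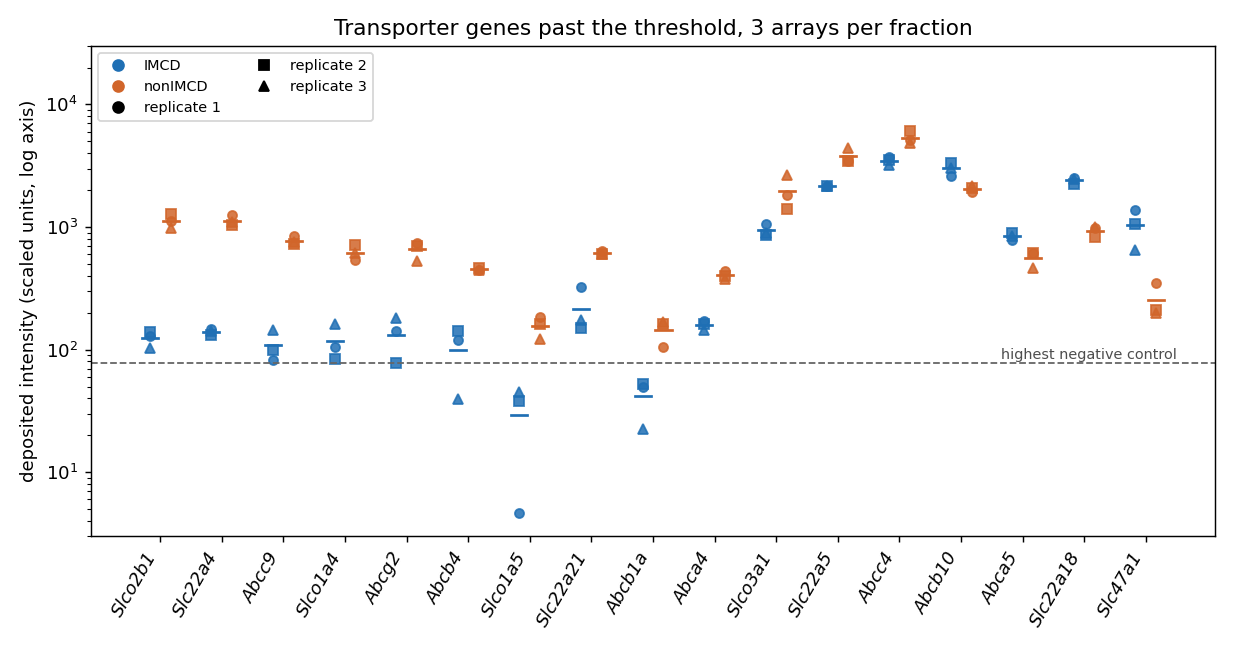
Deposited intensities (scaled units, log axis) of the 17 transporter genes past the threshold, ordered by their difference, on 3 IMCD and 3 nonIMCD arrays. Bars are means over 3 arrays, and the dashed line is the highest negative control of any array, 78.4 on nonIMCD replicate 1. In each of the 17 genes the arrays of the fractions did not overlap, and all 3 IMCD arrays of Slco1a5 and of Abcb1a lay under the dashed line.

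Many members were dim. The highest reading of the 3 probe sets for the bacterial trp control, used here as negative controls, was 78.4, on nonIMCD replicate 1. Their highest readings were 22.4, 45.2 and 45.8 on IMCD replicates 1 to 3, and 13 and 19.9 on nonIMCD replicates 2 and 3. The level of 78.4 was applied to every array, so it lies above the controls of most arrays. For 18 of the 66 genes both fraction means lay at or under it, and 0 of these 18 passed, with 0 at an unadjusted p under 0.05. This group held the bile salt exporter Abcb11, the conjugate exporter Abcc2, the sterol exporters Abcg5 and Abcg8, the organic anion uptake carrier Slc22a6, the urate carrier Slc22a12 and the liver carrier Slco1b2. Single arrays of some lay above that level, such as nonIMCD replicates 1 and 2 of Abcg5 (81.1 and 96.6) and nonIMCD replicate 3 of Abcg8 (122). Means at or under it do not show a transcript to be absent.

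**Figure D2:**
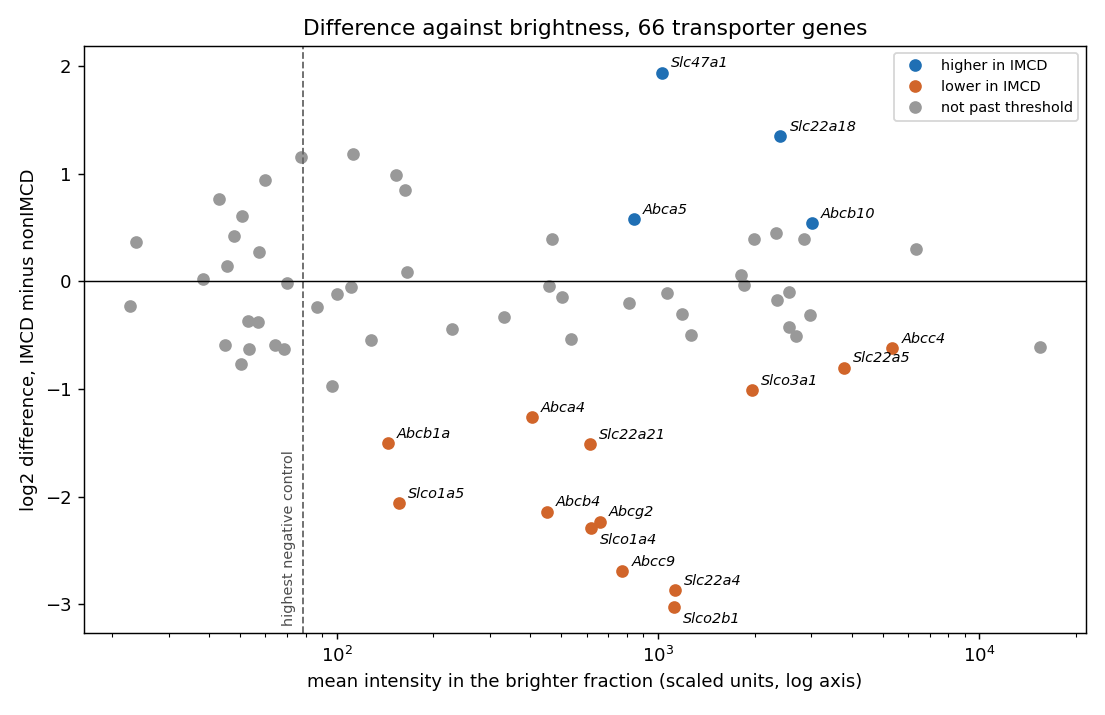
Log2 difference (IMCD minus nonIMCD) of 66 transporter genes against the mean intensity in the brighter fraction (scaled units, log axis), 1 point per gene. All 18 genes at or left of the dashed line (highest negative control of any array, 78.4) are grey, and Slco2b1 (-3.02) and Slc22a4 (-2.87) lie lowest.

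Among the A subfamily, whose members move lipids, 1 of 8 genes was higher and 1 lower. Abca4, the retinoid-lipid importer of photoreceptors, read 172, 161 and 145 on IMCD replicates 1 to 3 and 439, 398 and 375 on nonIMCD replicates 1 to 3. All IMCD arrays were low, the groups did not overlap, and the difference was -1.26 ± 0.13 (SE, adjusted p = 0.00218). Abca5, a lysosomal protein, read 789, 889 and 849 in IMCD against 609, 609 and 466. It was higher on every IMCD array, by 0.58 ± 0.16 (adjusted p = 0.0468). That call was lost without any 1 of the 6 arrays (0.46 to 0.64, adjusted p = 0.0779 to 0.129), and median centring gave 0.87.

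Abca1, which loads cholesterol onto apolipoprotein A-I, had -0.30 (95% interval -0.79 to 0.18, adjusted p = 0.331), and its 3 dimmer probe sets had -0.46 to -0.57, none past the threshold. Abca2 and Abca3, lipid transporters of lysosome-related organelles, had opposite signs. Abca2 read 1984 ± 75.3 in IMCD and 1527 ± 252 in nonIMCD (SD, n = 3; 0.39, adjusted p = 0.147). Abca3 read 1903 ± 201 and 2550 ± 227 (SD, n = 3; -0.42, adjusted p = 0.0913). Neither passed, although the arrays did not overlap in either gene. Abca7 (-0.11), Abca8 (-0.77) and Abca8a (-0.23) did not pass, and the last 2 were dim.

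The plasma membrane members of the B subfamily gave 2 lower genes of only 3, where 15.7% of all genes were lower. Abcb1a encodes P-glycoprotein, the drug exporter of the blood-brain barrier and of many epithelia. Its brightest probe set read 49.7, 52.1 and 22.7 in IMCD against 105, 161 and 167 in nonIMCD. Every IMCD array lay under 78.4, the highest negative control of any array, and under every nonIMCD array. On IMCD replicates 1 and 2 the reading was above the highest control of its own array (22.4 and 45.2). The difference was -1.50 ± 0.29 (SE, adjusted p = 0.0174). The call was lost without nonIMCD replicate 2 (-1.42, adjusted p = 0.0618) or 3 (-1.39, adjusted p = 0.0543). A second Abcb1a probe set read 8.68, 4.66 and 4.03 against 193, 187 and 152, a difference of -3.15 ± 0.16 (adjusted p = 0.000315). As both IMCD means are dim, the size depends on the pseudocount: it was -0.98 with 64 added, and -2.32 for the mean over both probe sets.

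Abcb4, the phosphatidylcholine exporter known from bile canaliculi, read 119, 142 and 39.4 in IMCD against 443, 465 and 443. The IMCD arrays were low, replicate 3 most so, and did not overlap with nonIMCD (-2.14 ± 0.40, SE, adjusted p = 0.0159). Without nonIMCD replicate 1 or 2 the difference was -2.15 (adjusted p = 0.0541) and -2.12 (adjusted p = 0.056). Abcb4 and Abcb1a are neighbours on rat chromosome 4, with 1 protein-coding gene starting between them in the RefSeq annotation of GRCr8. Abcb11 had 0.42 (adjusted p = 0.619) at a dim level.

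Half-transporters of the B subfamily sit in organelles, and 1 of 4 passed. Abcb10, of the inner mitochondrial membrane and linked to heme synthesis, read 2618, 3357 and 3038 in IMCD against 1921, 2080 and 2160. All IMCD arrays were higher (0.54 ± 0.14, SE, adjusted p = 0.047), and a second probe set agreed in direction (0.78 ± 0.19, adjusted p = 0.0374). The first call was lost without any 1 of the 6 arrays (0.46 to 0.63, adjusted p = 0.0591 to 0.134), and median centring gave 0.83. The mitochondrial Abcb8 had -0.20 (95% interval -0.74 to 0.34), Abcb6, a porphyrin transporter, 0.39 (-0.20 to 0.97), and the lysosomal peptide transporter Abcb9 -0.97 (-2.44 to 0.50).

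In the C subfamily 2 of 9 genes were lower and 0 higher by limma. At an unadjusted p under 0.05, 2 were higher, Abcc5 and Abcc8, and 3 lower, the 2 called genes and Abcc10 (adjusted p = 0.139). Abcc9 is the sulfonylurea receptor SUR2, the regulatory subunit of ATP-sensitive potassium channels in smooth muscle and pericytes, and does not itself carry drugs. It read 81.6, 99.3 and 145 in IMCD against 842, 733 and 748. The groups lay far apart, a difference of -2.69 ± 0.21 (SE, adjusted p = 0.000923) or 6.47-fold. A dimmer probe set had -2.42 (adjusted p = 0.0471). The other had 0.56 (adjusted p = 0.562) and lay under 78.4, the highest negative control of any array, on all arrays. The mean over the 3 probe sets gave -1.52. Beside it, 6 of 11 interstitial and pericyte markers were lower, 0 were higher and 5 did not pass. Of the 11, 2 had a positive difference, among them Acta2 (0.33, adjusted p = 0.226), whose IMCD arrays all lay above nonIMCD. The part of such cells in the value of Abcc9 was not tested. The related receptor SUR1, Abcc8, read 163 ± 51.2 in IMCD and 85.6 ± 39.5 in nonIMCD (SD, n = 3; 0.85, adjusted p = 0.132).

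Abcc4 exports cyclic nucleotides, prostaglandins and organic anions. Both fractions were bright, at 3691, 3526 and 3208 in IMCD and 5086, 6108 and 4880 in nonIMCD. All IMCD arrays lay under all nonIMCD arrays (-0.62 ± 0.14, SE, adjusted p = 0.0313). Median centring gave -0.33 (adjusted p = 0.161), and the call was lost without any 1 of the 6 arrays except nonIMCD replicate 3 (-0.52 to -0.66, adjusted p = 0.0741 to 0.0935). Abcc5, also a cyclic nucleotide exporter, read 2330 ± 385 and 1699 ± 243 (SD, n = 3), with 0.45 (adjusted p = 0.139). Abcc1, a glutathione conjugate exporter of basolateral membranes, had -0.17 (95% interval -0.51 to 0.17) at 2087 ± 210 and 2342 ± 171 (SD, n = 3). Abcc3 (-0.33), Abcc6 (0.09), Abcc10 (-0.44) and the dim Abcc2 (0.02) did not pass. For Abcc3 the spread was wide, from 121 to 337 in IMCD and from 142 to 579 in nonIMCD.

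The D subfamily, which includes peroxisomal importers of fatty acyl chains, gave 0 calls in 3 genes by limma, with 1 at an unadjusted p under 0.05. This was Abcd3, at 2893, 2785 and 2849 in IMCD against 2172, 1922 and 2425. Its IMCD arrays were all above the nonIMCD arrays (0.39, adjusted p = 0.0959), and median centring gave 0.68 (adjusted p = 0.0155). Abcd2 had 0.27 and Abcd4 -0.14. The E and F subfamilies have no membrane domain and act on ribosomes. Their 4 genes gave 0 calls by limma, again with 1 at an unadjusted p under 0.05, Abcf1 (-0.31, adjusted p = 0.112). Abce1 (-0.10), Abcf2 (-0.03) and Abcf3 (0.06) had 95% intervals within -0.50 and 0.36.

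In the G subfamily 1 of 6 genes was lower. Abcg2, the breast cancer resistance protein, exports drugs and urate and is found at apical membranes and in the endothelium of barriers. It read 141, 77.1 and 180 in IMCD against 744, 701 and 532. The highest IMCD array lay well under the lowest nonIMCD array, and the difference was -2.23 ± 0.31 (SE, adjusted p = 0.0054) or 4.71-fold. Abcg1, which passes cholesterol to high-density lipoprotein, was bright in both fractions, at 6328 ± 869 and 5129 ± 695 (SD, n = 3), and did not pass (0.30, 95% interval -0.13 to 0.73). Abcg3l1 (-0.04), Abcg4 (0.99, interval -1.06 to 3.04), Abcg5 (-0.63) and Abcg8 (-0.59) did not pass either.

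**Figure D3:**
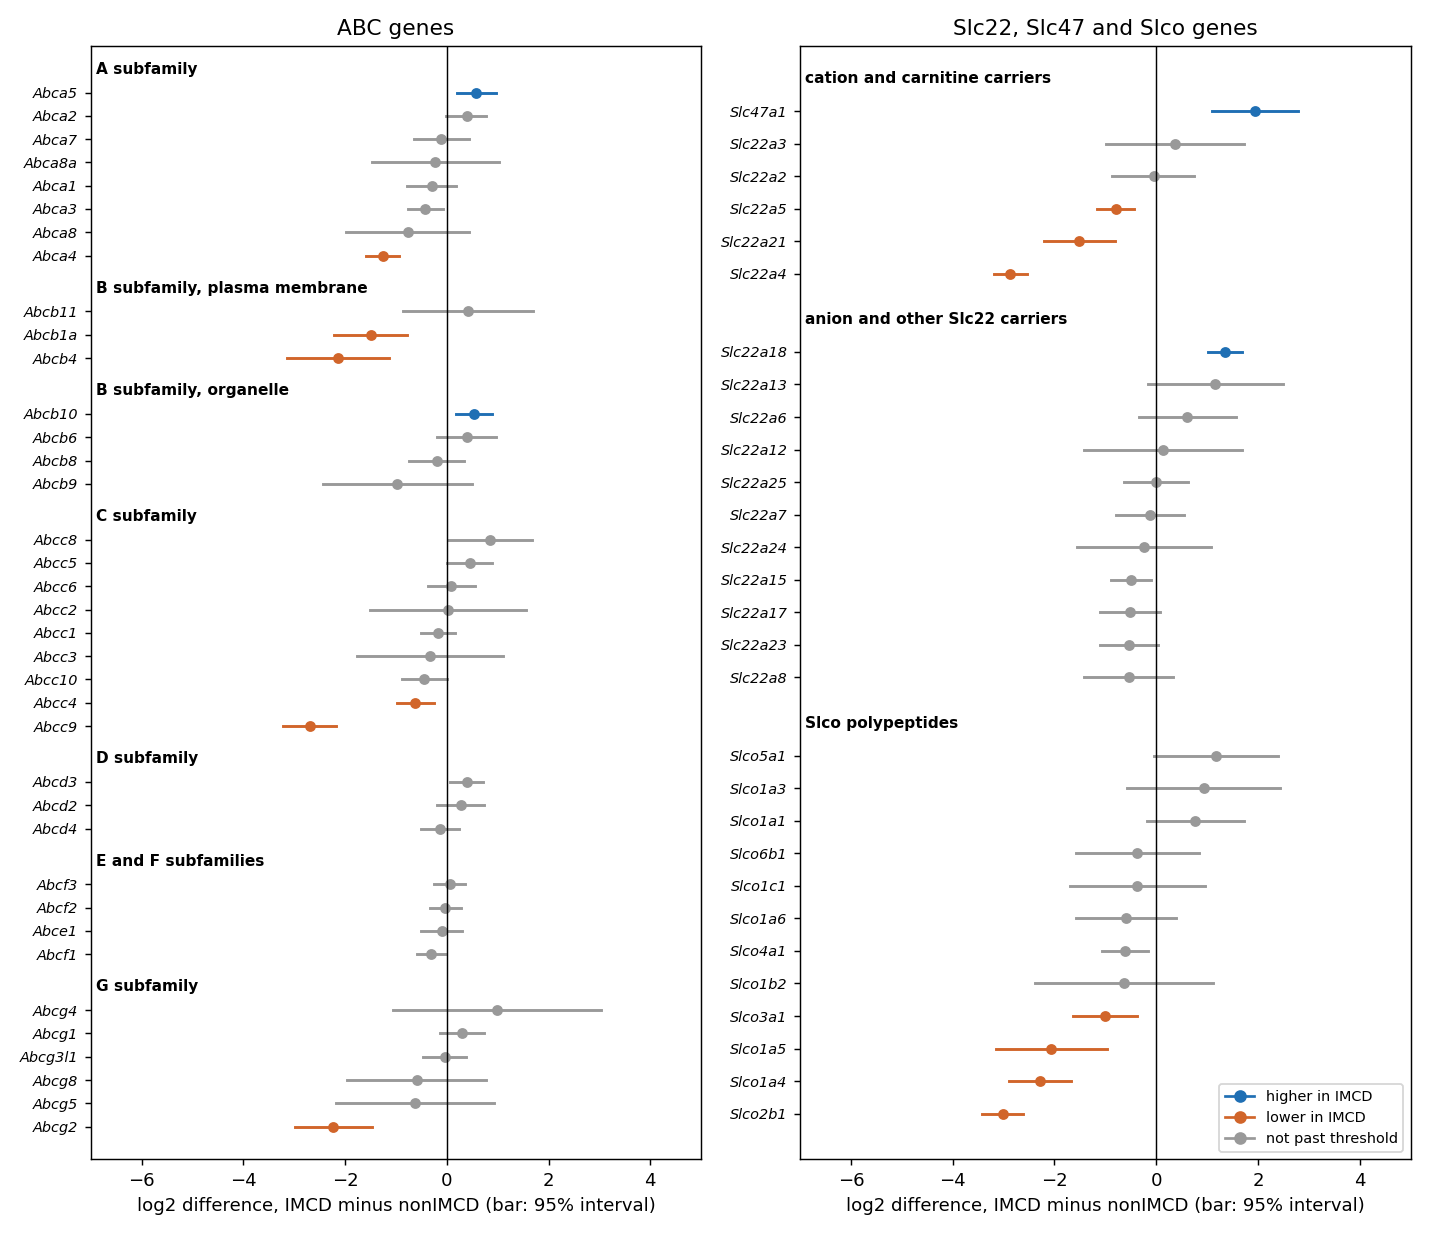
Log2 difference (IMCD minus nonIMCD, points) with 95% intervals (bars) of all 66 transporter genes, grouped by role, on 3 arrays per fraction. Blue marks the 4 genes higher in IMCD, orange the 13 lower and grey the 49 not past the threshold, and the widest interval is that of Abcg4 (-1.06 to 3.04).

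Over all genes 10.0% were higher and 15.7% lower. Cation and carnitine carriers gave 1 higher and 3 lower genes of 6 (median -0.43, and -0.14 with median centring). The higher one was Slc47a1, the proton-coupled multidrug and toxin extrusion exchanger MATE1, known from the brush border of the proximal tubule. It read 1384, 1057 and 652 in IMCD against 348, 209 and 200. All IMCD arrays were higher although they spread over a wide range, and the difference of 1.94 ± 0.34 (SE, adjusted p = 0.0129), or 3.85-fold, was the largest positive one among the called members. Slc22a2, the basolateral uptake carrier that MATE1 works with in the proximal tubule, read 65.5, 136 and 120 in IMCD against 72.1, 120 and 141 (-0.05, 95% interval -0.86 to 0.75). Slc22a3 was dim in both fractions (0.37, adjusted p = 0.683).

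The 3 lower genes of that group were Slc22a4, Slc22a21 and Slc22a5, which follow each other on rat chromosome 10 with 0 other protein-coding genes starting between them in the RefSeq annotation of GRCr8. Upstream sequences of Slc22a4 and Slc22a5 are shown because these neighbours were both lower; that of Slc22a21 is not, as its annotated start is in doubt. The 250 bases before each start are given 5′ to 3′ on the gene's strand, from RefSeq on GRCr8, at chr10:38679921-38680170 (Slc22a4) and chr10:38536073-38536322 (Slc22a5), both on the minus strand. Capitals mark matches on either strand to 3 motifs (of 6 searched), the GC box GGGCGG, the CCAAT box CCAAT and the antioxidant response core TGACNNNGC.
Slc22a4: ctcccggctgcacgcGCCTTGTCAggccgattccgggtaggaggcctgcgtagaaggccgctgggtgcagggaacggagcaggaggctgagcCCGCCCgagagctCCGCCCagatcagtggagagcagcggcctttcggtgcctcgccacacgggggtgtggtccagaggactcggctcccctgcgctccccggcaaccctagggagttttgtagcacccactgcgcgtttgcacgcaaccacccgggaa
Slc22a5: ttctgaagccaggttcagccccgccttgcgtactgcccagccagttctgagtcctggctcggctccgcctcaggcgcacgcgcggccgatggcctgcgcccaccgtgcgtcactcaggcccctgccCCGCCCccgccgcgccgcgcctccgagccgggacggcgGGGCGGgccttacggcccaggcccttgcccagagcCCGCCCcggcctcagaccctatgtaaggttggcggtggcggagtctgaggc
Slc22a4 holds 2 GC boxes and 1 antioxidant response core, and Slc22a5 holds 3 GC boxes. GGGCGG occurs in 40.3% of 19005 protein-coding promoters of this length, CCAAT in 35.5% and TGACNNNGC in 10.7%, and in 50.0%, 37.0% and 7.41% of the 54 members with a sequence. Of the 13 lower members 8 hold a GC box, 3 a CCAAT box and 1 the antioxidant core. Of the 3 higher members with a sequence 2, 1 and 0 do. The median GC content was 67.2% in the lower members, 56.4% in the 54 members and 54.8% over all promoters. Windows richer in G and C hold GGGCGG more readily, and its count was not tested. The other motifs searched were TATAAA (12.3% of all promoters, 7 of the 54 members), CACGTG (6.38%, 3 members) and TGACC (33.8%, 17 members), the last of which can overlap TGACNNNGC. Such matches are letters in a window, not sites.

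Slc22a4 transports the antioxidant ergothioneine and organic cations. It read 148, 131 and 141 in IMCD against 1242, 1046 and 1099. The IMCD arrays were close together and far under nonIMCD, and the difference was -2.87 ± 0.13 (SE, adjusted p = 0.000256) or 7.31-fold. Slc22a21, a carnitine transporter, read 323, 150 and 176 in IMCD against 639, 602 and 598. Replicate 1 was the highest of its IMCD arrays, still under every nonIMCD array (-1.51 ± 0.28, SE, adjusted p = 0.0155). It did not pass when IMCD replicate 3 was left out (-1.41, adjusted p = 0.0529), nor without nonIMCD replicate 1 (-1.48, adjusted p = 0.056) or 2 (-1.52, adjusted p = 0.0517).

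Slc22a5, the sodium-coupled carnitine carrier OCTN2, was the one of the 3 that was bright in IMCD. It read 2142, 2142 and 2172 there against 3455, 3442 and 4443, a difference of -0.80 ± 0.15 (SE, adjusted p = 0.0149). Without IMCD replicate 1 or 2 the difference was -0.79 in each case (adjusted p = 0.0546 and 0.051), and under median centring it was -0.51. The 95% intervals of Slc22a4 (-3.19 to -2.55), Slc22a21 (-2.20 to -0.81) and Slc22a5 (-1.16 to -0.43) are given side by side; a difference between them was not tested. As the 3 proteins are related, cross-hybridisation between their transcripts was not tested.

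Of the 11 other Slc22 carriers 1 was higher and 0 lower by limma, with 1 lower at an unadjusted p under 0.05, Slc22a15. Slc22a18, a carrier of unknown substrate encoded in an imprinted region, read 2497, 2237 and 2476 in IMCD against 977, 826 and 1004. The IMCD arrays were tightly grouped and all above nonIMCD, by 1.35 ± 0.14 (SE, adjusted p = 0.00197) or 2.55-fold. Its upstream sequence (GRCr8, chr1:208100923-208101172, plus strand) is shown as that of the called higher member with the smallest adjusted p, with the same capitals.
Slc22a18: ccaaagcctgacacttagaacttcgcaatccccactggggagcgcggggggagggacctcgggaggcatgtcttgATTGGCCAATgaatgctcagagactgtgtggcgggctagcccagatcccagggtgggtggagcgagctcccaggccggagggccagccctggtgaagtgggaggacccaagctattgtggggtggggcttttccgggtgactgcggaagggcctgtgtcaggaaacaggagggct
It holds 2 adjoining CCAAT boxes, 1 on each strand, and 0 GC boxes.

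The carriers that take up anions in the proximal tubule were dim, but Slc22a8 was not at the level of the negative controls on every array. It read 149 and 156 on nonIMCD replicates 2 and 3, whose highest controls were 13 and 19.9. Slc22a6 (OAT1) read 50.7 ± 27.8 in IMCD and 26.2 ± 12.8 in nonIMCD, and Slc22a8 (OAT3) 82.8 ± 33.7 and 128 ± 44.0 (SD, n = 3). Slc22a12, the urate exchanger URAT1, read 45.7 ± 33.3 and 37.9 ± 32.0 (SD, n = 3). None passed. Slc22a7 (-0.12), Slc22a13 (1.16, adjusted p = 0.19), Slc22a24 (-0.24) and Slc22a25 (-0.01) did not pass either, and the brightest of these, Slc22a7, read 87.2 ± 11.5 and 100 ± 39.7 (SD, n = 3). Without IMCD replicate 1, the array labelled 6 weeks, Slc22a13 passed (1.78, adjusted p = 0.00943). Brighter members were Slc22a17, a receptor for the iron-binding protein lipocalin-2, at 1927 ± 581 and 2687 ± 335 (SD, n = 3; -0.51, adjusted p = 0.195), Slc22a15 (-0.50, adjusted p = 0.0831) and Slc22a23 (-0.53, adjusted p = 0.169).

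Slco polypeptides are sodium-independent exchangers of bile salts, steroid conjugates and thyroid hormones. Of these 4 of 12 were lower by limma, where 15.7% of all genes were lower. None was higher, with 0 higher at an unadjusted p under 0.05 (median -0.60, and -0.32 with median centring). Slco2b1, which carries steroid sulfates and many drugs, had the largest difference among the members' brightest probe sets. Averaged over its probe sets it had -2.54, less than Slc22a4 (-2.87), and the dim second probe set of Abcb1a had -3.15. It read 129, 139 and 104 in IMCD against 1113, 1276 and 981. The fractions lay far apart, by -3.02 ± 0.17 (SE, adjusted p = 0.000395) or 8.13-fold, and a second probe set gave -2.06 ± 0.44 (adjusted p = 0.0245). Its upstream sequence (GRCr8, chr1:163408066-163408315, minus strand) is printed as that of the member first in that order of brightest probe sets, and it holds 0 of the 3 motifs shown in capitals.
Slco2b1: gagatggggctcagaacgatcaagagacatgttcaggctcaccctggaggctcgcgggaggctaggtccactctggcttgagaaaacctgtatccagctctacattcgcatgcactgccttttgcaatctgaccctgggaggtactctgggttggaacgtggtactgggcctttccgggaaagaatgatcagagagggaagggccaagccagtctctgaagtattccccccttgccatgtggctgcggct

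Slco1a4, the anion and digoxin carrier of rat brain capillaries and liver, read 105, 83.8 and 163 in IMCD against 534, 707 and 613. IMCD was low on all arrays (-2.29 ± 0.25, SE, adjusted p = 0.00249), and a second probe set was lower too (-1.80 ± 0.12, adjusted p = 0.000569). Slco1a5, a bile salt carrier, read 4.67, 38.4 and 44.8 against 185, 162 and 122. Its IMCD arrays were at the level of the negative controls, so the difference of -2.06 ± 0.44 (adjusted p = 0.0241) depends on the pseudocount and was -1.26 with 64 added and -2.84 with 1 (adjusted p = 0.0751). It lost its call without nonIMCD replicate 1, 2 or 3 (-1.94, -2.03 and -2.21, adjusted p = 0.0789, 0.0757 and 0.0508).

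Both belong to a row of 7 Slco1 members that follow each other on rat chromosome 4 with 0 other protein-coding genes starting between them. The other 5, Slco1c1 (-0.38), Slco1b2 (-0.63), Slco1a1 (0.77), Slco1a3 (0.94) and Slco1a6 (-0.59), did not pass and had means of at most 59.7 in either fraction. Leaving out IMCD replicate 1 gave 1.59 for Slco1a3 (adjusted p = 0.0465), while its second probe set had -0.14 with all arrays (adjusted p = 0.777). In all, 34 of the 66 members lay within 500 kb of another member, in 12 groups, so members are not independent in position.

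Slco3a1 and Slco4a1 were bright. Slco3a1, a prostaglandin and thyroxine carrier, read 1064, 857 and 894 in IMCD against 1828, 1397 and 2664. NonIMCD replicate 3 was the highest, no array overlapped, and the difference was -1.01 ± 0.26 (SE, adjusted p = 0.0416), with a dimmer probe set at -0.30 (adjusted p = 0.349) and -0.65 for the mean of both. The call was lost under median centring (-0.72, adjusted p = 0.0915), quantile normalization (-0.91, adjusted p = 0.0706) and without any 1 array except nonIMCD replicate 2 (-0.76 to -1.10, adjusted p = 0.0599 to 0.115). Slco4a1, a thyroid hormone carrier, read 10390, 10991 and 8686 against 13156, 18447 and 14691. All IMCD arrays were lower, yet adjusted p was 0.0628 (-0.61 ± 0.18), and it was 0.0318 after quantile normalization (-0.79) and 0.245 under median centring (-0.33). Slco5a1 (1.18, adjusted p = 0.155) and Slco6b1 (-0.37) did not pass, but without nonIMCD replicate 1 Slco5a1 did (1.74, adjusted p = 0.0114). A second Slco5a1 probe set had the opposite sign on all arrays together (-0.59, adjusted p = 0.654).

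Probe sets of 1 gene mostly gave the same direction. Of 18 members with several probe sets 6 had a called brightest one. Among their 7 further probe sets 5 were called in the same direction and 0 in the opposite one. For the 12 genes whose brightest probe set did not pass, 0 of 15 further probe sets passed in limma's test, with 2 at an unadjusted p under 0.05. The plot of settings shows that 8 of the 17 called members kept their call in every alternative that tested them: Slc47a1 and Slc22a18 among the higher, and Abca4, Abcc9, Abcg2, Slc22a4, Slco1a4 and Slco2b1 among the lower. In the 15 alternatives run, 0 of the 17 changed sign. As the arrays of these genes did not overlap, another pseudocount or a left-out array could not turn a sign. The dim filter, variance trend, replicate block and suffix rule left their estimates as they were. Only median centring, quantile normalization and the mean over probe sets could have turned one.

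**Figure D4:**
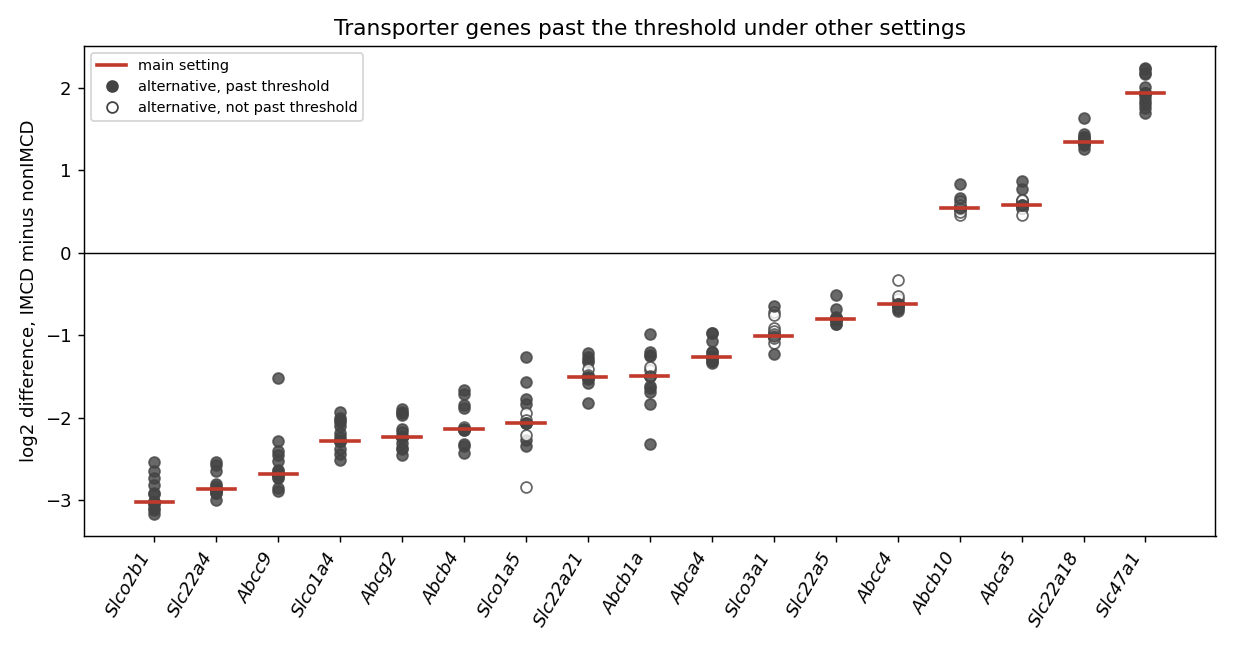
Log2 difference (IMCD minus nonIMCD) of the 17 called transporter genes in the main setting (red bar) and in 15 alternatives (points, filled where adjusted p is under 0.05 in that alternative). No point crosses 0, though only median centring, quantile normalization and the mean over probe sets could have moved one across it. Abca5, Abcb10, Abcc4 and Slco3a1 have the most open points, several of them overlapping.

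Genes that work with these transporters were taken from 4 lists. Of 15 measured receptors and other regulators of transporter genes 2 were higher, 2 lower and 11 did not pass (median 0.35). Nr1h3, the liver X receptor alpha that drives Abca1 and Abcg1, read 112 ± 21.2 in IMCD and 311 ± 44.0 in nonIMCD (SD, n = 3; -1.36 ± 0.18, SE, adjusted p = 0.00502). Nfe2l2, the regulator of the antioxidant response, was higher (22654 ± 930 against 12616 ± 1034, SD, n = 3; 0.85 ± 0.13, adjusted p = 0.00713). Ahr, the dioxin receptor, was lower in its brightest probe set (-1.21 ± 0.27, adjusted p = 0.0263). Its brightest probe set whose name carries no suffix letter (a, s or x) had 0.13 (adjusted p = 0.838). Both scalings ended the call (-0.92 each, adjusted p = 0.052 and 0.0641). So did leaving out IMCD replicate 1 or any 1 nonIMCD array (-1.17 to -1.27, adjusted p = 0.0676 to 0.0797).

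Of 8 measured scaffolds and ion-coupling partners 1 was lower and 7 did not pass (median -0.03). This was the sodium-proton exchanger Slc9a3 (-1.31 ± 0.29, SE, adjusted p = 0.0263), whose call was lost without IMCD replicate 2 or any 1 nonIMCD array (-1.28 to -1.37, adjusted p = 0.065 to 0.0805).

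Conjugating enzymes, which make glutathione, sulfate and glucuronide substrates for the exporters, gave 7 higher and 3 lower of 16, with a median of 0.64. The glutathione transferases Gstm1 and Gstm2 were higher, with differences of 2.31 ± 0.17 (SE, adjusted p = 0.000809) for the former and 1.85 ± 0.12 (adjusted p = 0.000531) for the latter. Gstm2 read 13216 ± 774 in IMCD and 3662 ± 159 in nonIMCD (SD, n = 3). Gsta4, which acts on lipid aldehydes, was lower (-2.09 ± 0.52, adjusted p = 0.0382). Its call was lost under median centring (-1.80, adjusted p = 0.0524) and without any 1 array except IMCD replicate 3 (-1.64 to -2.16, adjusted p = 0.0774 to 0.113). These families have close paralogs, and cross-hybridisation was not tested.

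Of 10 lipoprotein partners of the lipid exporters 1 was higher, 5 were lower and 4 did not pass (median -0.96). Pltp, the phospholipid transfer protein, read 6.65, 31.7 and 9.61 in IMCD, at the level of the negative controls, against 1893, 1981 and 1099 in nonIMCD (-5.74 ± 0.37, SE, adjusted p = 0.000531). With IMCD this dim the size depends on the pseudocount, and it was -4.40 with 64 added and -6.86 with 1. Apoe, the cholesterol carrier made by macrophages, had -2.87 ± 0.20 (adjusted p = 0.000605), with -1.31 for the mean over its probe sets. Lcat, which esterifies cholesterol in lipoproteins, had -2.42 ± 0.27 (adjusted p = 0.00276). Beside these, 11 of 12 leukocyte markers were lower, and their part in the values was not tested.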

How the data were processed

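RNA of 3 IMCD and 3 nonIMCD preparations was labelled with biotin and hybridised to Affymetrix Rat 230 2.0 arrays, per the labels. The authors deposited intensity values that are linear, with 1 value for each array and probe set, scaled to a trimmed mean (2% at each end) of 1000.3 to 1000.4; the software was not found in those labels, and detection calls were not used. The table held 31099 probe sets, of which 57 controls were left out and 31042 tested with no filter. Replicates are those of the labels' titles. Intensities were analysed as log2(value + 16), which understates differences of dim signals, with limma 3.58.1 in R 4.3.3 (lmFit, eBayes, two-sided, no covariate). Per-array scaling makes each difference relative to the array's average. The series speaks of 3 pairs but not of which arrays form one, nor whether arrays came from separate animals, so p-values measure the spread between these arrays, which may be partly technical; 3 arrays per fraction limit the precision. Member symbols were those of RefSeq by identifier for all 88 probe sets; 2 family probe sets with several symbols were left out. Every member is named, with arrays for called members that differ at least 2-fold and for relatives of the same role; arrays of the other called members, Abcd3 and Slco4a1 were added after their values were seen. Other lists give up to 3 called genes. Members, lists and role groups were chosen with earlier results of these data known, and so were the 500 kb neighbour distance, the 250-base window, the promoters shown and the 6 motifs. Neighbours and promoters are from RefSeq (GRCr8), with promoters for 54 of 66 members, Slc22a21 (start in doubt) included in the counts. The test was tried on simulated data. Alternatives changed the pseudocount (1, 64), scaling, a filter on dim probe sets (mean under 100), variance trend, replicate block, arrays used and the probe set that stands for a gene.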

Additional observations from a re-analysis of the deposited data

How the results depend on the processing

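Calls depended on settings mostly for members with small differences or dim signals. The count of higher members was 4 in the main setting, 2 with a pseudocount of 1, 7 with median centring and 7 with an intensity trend. Higher members made up 23.5% of member calls, and 38.9% under median centring, while over all probe sets that share went from 39% to 67%. The count of lower members was 13, and 9 to 17 in the alternatives that kept all arrays. Leaving out 1 array at a time gave 2 to 4 higher and 8 to 10 lower members, and 4313 to 5469 called probe sets of all kinds against 6826 (fewest without nonIMCD replicate 1). With a replicate block the counts were 2 higher and 9 lower members and 4824 probe sets. Deviations of arrays with the same number correlated at 0.04, 0.04 and 0.06, so the numbers were not taken as pairs, although each array correlated best with its own number, a hint from the data and not from the design. Under the block Abca5, Abcb10, Abcb1a, Abcc4, Slco1a5 and Slco3a1 lost their calls (adjusted p = 0.0616 to 0.0907), as did Slc9a3 (0.0547) and Ahr (0.0604) of the other lists. With a pseudocount of 1, 4 members lost their calls, Abca5 (0.59, adjusted p = 0.0533), Abcb10 (0.54, adjusted p = 0.0531), Slco3a1 (-1.02, adjusted p = 0.052) and Slco1a5 (-2.84, adjusted p = 0.0751). Of 49 uncalled members 10 passed in at least 1 alternative. Among the called genes named, 1 turned in direction, Ahr of the regulator list, at 0.13 for another of its probe sets, one without a suffix. The cause of the other changes was not tested. The filter on dim probe sets left 40 members to test.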
